A study of Homo sapiens and Mus musculus with 19 samples.

Results

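Heme is made from glycine and succinyl-CoA by a chain of enzymes that begins and ends inside the mitochondrion. The 9 genes described here encode the isozymes of the opening step (ALAS1 and ALAS2), the later enzymes ALAD, UROS, UROD, CPOX, PPOX and FECH, and SLC25A38, a carrier that brings glycine into the mitochondrion. They were taken from a fixed list of symbols, matched by Ensembl identifier, and are 9 of the 58721 genes counted in each human library. All 9 passed the filter on low counts, with 392 (ALAD) to 11451 reads (UROD) per library. Chromatin-associated RNA (caRNA), the RNA that stays with the chromatin pellet after the soluble nuclear fraction is removed, was sequenced from K562, a human erythroleukaemia line, so that each value is a level of RNA on chromatin and not of mature mRNA or enzyme.

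TET2 was either intact (wild type, WT) or knocked out (KO), and each kind of cell expressed either shControl or shMBD6, the latter directed at MBD6, which gives 4 groups of 3 libraries. The TET2 enzyme oxidizes 5-methylcytosine, and MBD6 belongs to the methyl-binding-domain proteins. The question was how loss of TET2 changes caRNA and whether lowering MBD6 offsets that change. Both shRNAs were introduced by lentivirus and kept in puromycin-selected stable cells. The study lists WT and KO K562 cells as gifts of the same other laboratory, and also a WT K562 line from a cell bank. Which WT line was used here is not stated. Differences between lines other than TET2 cannot be told apart from the genotype. The study calls the replicates of its genome-wide data biological. It does not say whether the 3 libraries of a group came from separate cultures, and p-values measure the spread between these libraries.

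Each library held 52158403 to 102070223 gene counts. Levels are CPM (reads of a gene per 1e+06 gene counts) after TMM scaling, given as mean ± SD over the 3 libraries of a group, and changes are log2 ratios from 1 edgeR quasi-likelihood fit of the 12 libraries, with a standard error (SE). The threshold for a call was an adjusted p of 0.05, by Benjamini-Hochberg over 26023 genes. MBD6 fell from 41.5 ± 2.55 CPM in WT shControl to 28.0 ± 2.71 in WT shMBD6 (log2 change -0.57, SE 0.08, adjusted p = 1.83e-07). In KO cells it stood at 30.3 ± 0.750 CPM with shControl and at 34.4 ± 3.86 CPM where the label was shMBD6 (log2 difference 0.19, SE 0.08, adjusted p = 0.0574), which was called without replicate 1 of the latter (0.26). MBD6 caRNA was therefore not lower in the 3 KO libraries labelled shMBD6, which are called KO labelled shMBD6 below. These values are not of mature MBD6 mRNA or protein, so whether MBD6 was depleted in these libraries cannot be read from them. The study reports that MBD6 knockdown slowed the proliferation of KO K562 cells. MBD6 was also lower in KO shControl than in WT shControl (log2 change -0.46, SE 0.08, adjusted p = 6.50e-06), and its KO shControl libraries overlapped those of WT shMBD6. Whether the shRNA labels of the 2 KO groups were exchanged was not tested. The name KO shControl is likewise that of the label, and every comparison with a KO group rests on these labels. TET2 caRNA was present in all groups, at 121 ± 2.59 CPM in WT shControl, 121 ± 4.06 in WT shMBD6, 129 ± 2.22 in KO shControl and 94.8 ± 5.28 in KO labelled shMBD6, and a count over the whole gene does not show whether the edited allele makes protein.

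K562 is labelled as a lymphoblast line, and markers were set against that label. Of 10 markers of the erythroid and megakaryocytic lineages, 7 or 8 reached a mean of 1 CPM in every group, whereas 2 of 8 lymphoid markers did. The summed level of the erythroid and megakaryocytic markers was 844 to 876 CPM in WT shControl, 576 to 598 in WT shMBD6, 494 to 505 in KO shControl and 679 to 686 in KO labelled shMBD6. HBG2 was at 0 and GP9 held 3 reads in all. The summed lymphoid markers were 2.73 to 3.59, 5.70 to 7.05, 3.26 to 3.83 and 2.99 to 7.69 CPM in the same order. Of 8 granulocyte and monocyte markers, 3 or 4 reached a mean of 1 CPM and ELANE was at 0. Their sum was 24.7 to 28.9 CPM in WT shControl, 36.3 to 38.3 in WT shMBD6, 39.5 to 44 in KO shControl and 39.0 to 43.5 in KO labelled shMBD6, most of it from SPI1 (23.7, 31.5, 35.6 and 35.7 CPM). The erythroid and megakaryocytic sum thus took the same order of groups as several of the genes below, and the granulocyte and monocyte sum was lowest in WT shControl. The part of either in the changes was not tested.

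Heme synthesis starts with ALAS, which condenses glycine and succinyl-CoA and sets the pace of the pathway. ALAS1 is the housekeeping isozyme, found in every tissue, and ALAS2 is its erythroid counterpart on the X chromosome. UROD, PPOX and FECH act late in the pathway: UROD removes carboxyl groups from uroporphyrinogen, PPOX oxidizes protoporphyrinogen, and FECH inserts iron into protoporphyrin. SLC25A38 lies ahead of ALAS, as the entry of glycine. The 150 bases just before the annotated start of 5 genes are shown. Among these, ALAS2 moved opposite to UROD, PPOX and SLC25A38 in each of the 4 comparisons, while ALAS1 followed neither. FECH and UROS also moved opposite to ALAS2 in each of them, as did CPOX, which was called only in KO against WT shControl. No UROS sequence was found, and FECH and CPOX are not printed. Both have matches to CCNCNCCC, described below, at 141 and 87 (FECH) and 50 (CPOX) bases before the start. The printed genes thus do not stand for all genes that moved opposite to ALAS2. The sequences are from RefSeq (GRCh38.p14), are written 5′ to 3′ on the strand of the gene, and mark in capitals each match to GATA preceded by A or T and followed by A or G (the letters read by GATA factors) and to CCNCNCCC (letters of the kind read by KLF and SP factors), on either strand.
ALAS2, chrX:55030978-55031127, minus strand: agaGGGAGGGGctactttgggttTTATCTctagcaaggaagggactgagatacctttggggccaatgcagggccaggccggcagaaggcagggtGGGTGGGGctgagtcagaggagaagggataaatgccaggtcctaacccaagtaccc
ALAS1, chr3:52197933-52198082, plus strand: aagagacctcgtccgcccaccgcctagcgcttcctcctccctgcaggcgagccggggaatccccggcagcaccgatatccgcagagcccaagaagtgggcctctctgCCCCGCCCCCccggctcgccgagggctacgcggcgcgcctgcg
UROD, chr1:45012104-45012253, plus strand: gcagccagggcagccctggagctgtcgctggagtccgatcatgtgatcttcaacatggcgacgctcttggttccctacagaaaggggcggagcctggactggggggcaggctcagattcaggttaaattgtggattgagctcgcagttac
PPOX, chr1:161166276-161166425, plus strand: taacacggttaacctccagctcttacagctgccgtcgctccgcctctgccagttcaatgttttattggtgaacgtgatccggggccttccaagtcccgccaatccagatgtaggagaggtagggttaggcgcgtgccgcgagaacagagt
SLC25A38, chr3:39383220-39383369, plus strand: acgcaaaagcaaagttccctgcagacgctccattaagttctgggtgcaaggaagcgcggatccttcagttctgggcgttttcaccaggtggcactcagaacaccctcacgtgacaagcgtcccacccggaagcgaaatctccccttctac

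Promoter sequences were found for 8 of the 9 genes, the exception being UROS. In the 250 bases before the start, the GATA letters were present in ALAS2 (1 match, 127 bases before the start) and in CPOX (2 matches, at 207 and 125 bases), and in 22.9% of 27305 promoters of the same length. CCNCNCCC was found in ALAS1, ALAS2, ALAD, CPOX and FECH and in 52.4% of all promoters, and neither motif was found in UROD, PPOX or SLC25A38. The TGANTCA letters were found in ALAS2 alone among the 8 genes, 47 bases before the start, and in 6.6% of all promoters. The ALAS2 window held 1 CpG and 52.8% G and C, against 22 CpG and 67.2% in ALAS1, 12 and 53.6% in UROD, 21 and 60.0% in PPOX and 26 and 72.4% in FECH, and against medians of 11 CpG and 58.0% over all promoters. Genes that moved together, such as UROD and FECH, thus did not share these letters, and a match is a description of the sequence alone. The UROD and PPOX starts used by RefSeq lie inside the GENCODE genes, which begin at chr1:45010950 and chr1:161166056. The sequences printed for UROD and PPOX thus lie within those gene spans. The RefSeq starts of ALAD, CPOX and FECH also lie slightly inside their GENCODE genes.

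In hg38 the gene spans were 4.63 kb for UROD on chromosome 1 (45010950 to 45015575, plus strand), 11.96 kb for PPOX on chromosome 1 (161166056 to 161178013, plus), 16.2 kb for ALAS1 on chromosome 3 (52198086 to 52214327, plus), 13.98 kb for SLC25A38 on chromosome 3 (39383370 to 39397351, plus), 14.2 kb for CPOX on chromosome 3 (98579446 to 98593648, minus), 15.0 kb for ALAD on chromosome 9 (113386312 to 113401290, minus), 38.3 kb for UROS on chromosome 10 (125784980 to 125823258, minus), 42.4 kb for FECH on chromosome 18 (57544377 to 57586732, minus) and 21.9 kb for ALAS2 on chromosome X (55009055 to 55030977, minus). Introns made up 12.9% of the UROD span and 60.5% (PPOX) to 90.7% (ALAS2) of the others. A same-strand gene covered 42.6% of the CPOX span and reads from overlapping genes are set aside in counting, so that CPOX values are uncertain. ALAS2, UROS, UROD and PPOX overlap APEX2, MIR4484, HECTD3 and B4GALT3 on the opposite strand, and the strand setting used for counting is not given in the sources used here.

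Relative to other genes, most of the pathway was lower on chromatin in KO shControl than in WT shControl. Of the 9 genes, 8 were called, 2 higher (ALAS1 and ALAS2) and 6 lower (UROS, UROD, CPOX, PPOX, FECH and SLC25A38), and their libraries did not overlap between the groups, with ALAD the exception. Of all genes tested, 45.8% were called in this comparison, 23.5% higher and 22.3% lower, and the groups did not overlap for 56.1%. The median log2 change was -0.49 over the 9 genes and -0.05 over all genes. With KO labelled shMBD6 in place of KO shControl, 5 of the 9 genes were called against WT shControl, 1 higher and 4 lower. Of all genes, 38.9% were called there. The median was -0.175 over the 9 genes and -0.05 over all genes.

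**Figure D1:**
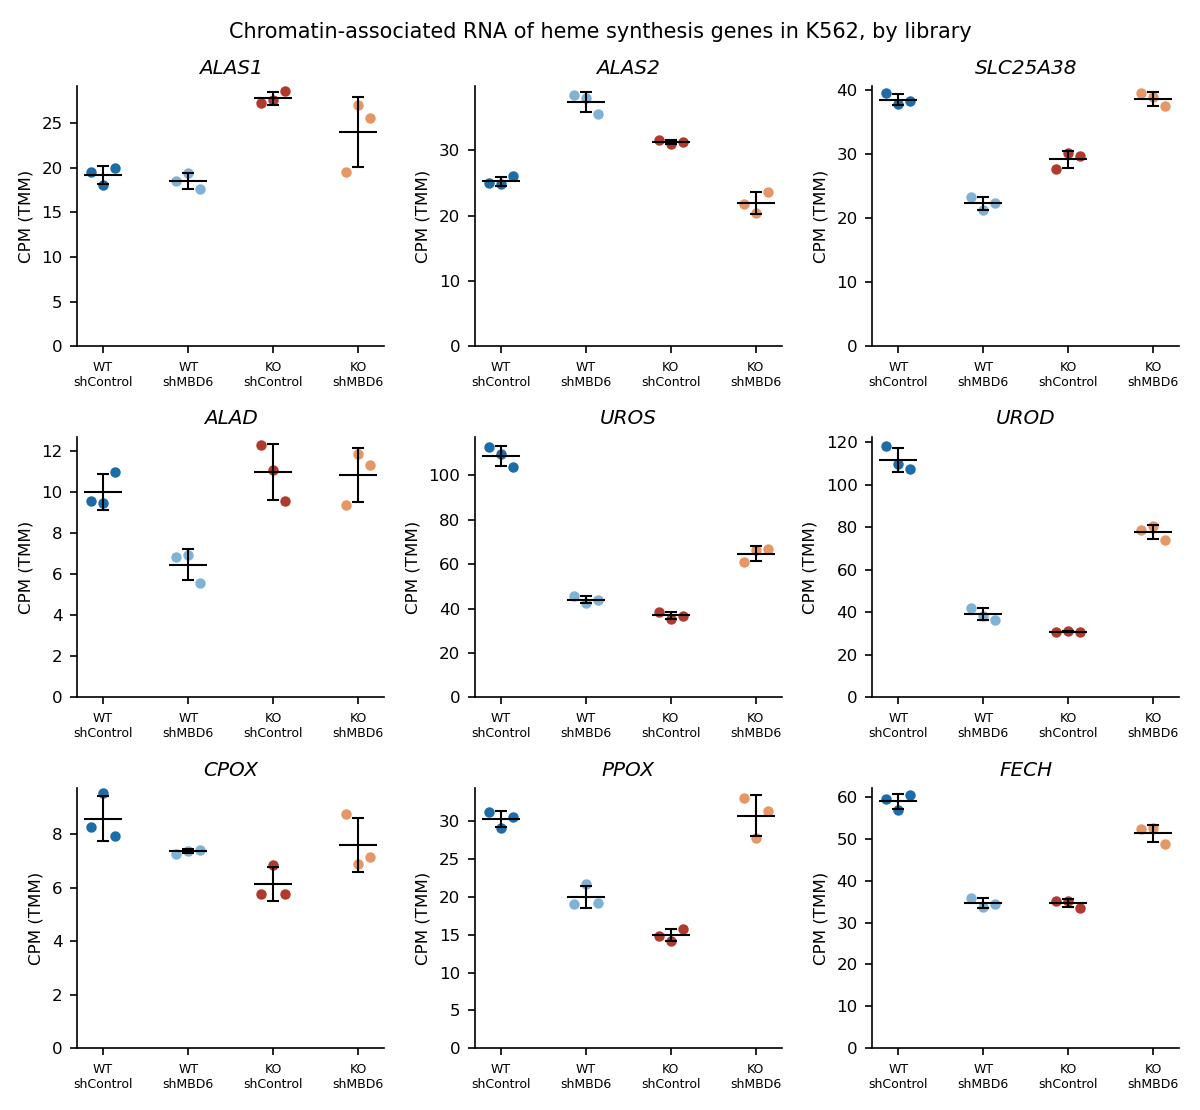
Levels of the 9 heme synthesis genes in caRNA of K562 by group, in CPM after TMM scaling on axes that start at 0. Points are libraries and bars are the mean and SD of 3 libraries. UROS, UROD, PPOX and FECH are high in WT shControl, low in WT shMBD6 and KO shControl and higher again in KO labelled shMBD6, whereas ALAS2 is highest in WT shMBD6.

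The steepest fall was that of UROD. Its 3 libraries stood at 118, 110 and 107 CPM in WT shControl and at 30.7, 31.3 and 30.7 CPM in KO shControl. Every KO library was far below every WT library, and the log2 change was -1.86 (SE 0.05, adjusted p = 1.87e-24), 3.62-fold lower. UROS, which closes the uroporphyrinogen ring, stood at 113, 110 and 104 CPM in WT shControl and at 38.7, 35.3 and 36.7 CPM in KO shControl, 2.94-fold lower (log2 change -1.56, SE 0.05, adjusted p = 1.04e-22). UROS and UROD, which act in turn, thus had the largest falls among the 9 genes in this comparison.

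The last steps fell less. PPOX libraries were at 31.2, 29.04 and 30.6 CPM in WT shControl and at 14.9, 14.1 and 15.8 CPM in KO shControl, 2.02-fold lower (log2 change -1.02, SE 0.08, adjusted p = 1.64e-12). FECH libraries were at 59.5, 56.9 and 60.4 CPM against 35.3, 35.2 and 33.5 CPM, 1.70-fold lower (log2 change -0.77, SE 0.06, adjusted p = 1.87e-13). Both genes were lower in each KO library than in any WT library. CPOX, which makes protoporphyrinogen from coproporphyrinogen, was among the genes with the fewest reads, at 8.28, 9.53 and 7.93 CPM against 5.76, 6.86 and 5.78 CPM (log2 change -0.49, SE 0.14, adjusted p = 0.00409). The glycine carrier SLC25A38 stood at 39.4, 37.7 and 38.2 CPM against 27.6, 30.2 and 29.7 CPM, a log2 change of -0.40 (SE 0.06, adjusted p = 3.81e-06).

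The opening step went the other way. ALAS1 libraries stood at 19.6, 18.02 and 19.96 CPM in WT shControl and at 27.2, 27.6 and 28.6 CPM in KO shControl, 1.45-fold higher (log2 change 0.53, SE 0.09, adjusted p = 9.09e-06). ALAS2 stood at 24.8 to 26.1 CPM in WT shControl against 30.9 to 31.6 CPM in KO shControl, without overlap, 1.24-fold higher (log2 change 0.31, SE 0.07, adjusted p = 0.000452). Scaling by total gene counts left ALAS2 at 0.13 with an adjusted p of 0.127, so the call was lost there. The same fit with DESeq2 size factors kept it (0.28, adjusted p = 0.00094). ALAS2 was 0.36 above the median of all genes under TMM and under both of these scalings. A scaling moves a gene and that median alike, so this difference does not test the call. ALAD, which joins 2 molecules of aminolevulinate into porphobilinogen, was at 9.55, 9.44 and 10.97 CPM against 12.3, 11.1 and 9.56 CPM, with overlapping groups and a log2 difference of 0.14 (95% interval -0.12 to 0.39, adjusted p = 0.422).

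**Figure D2:**
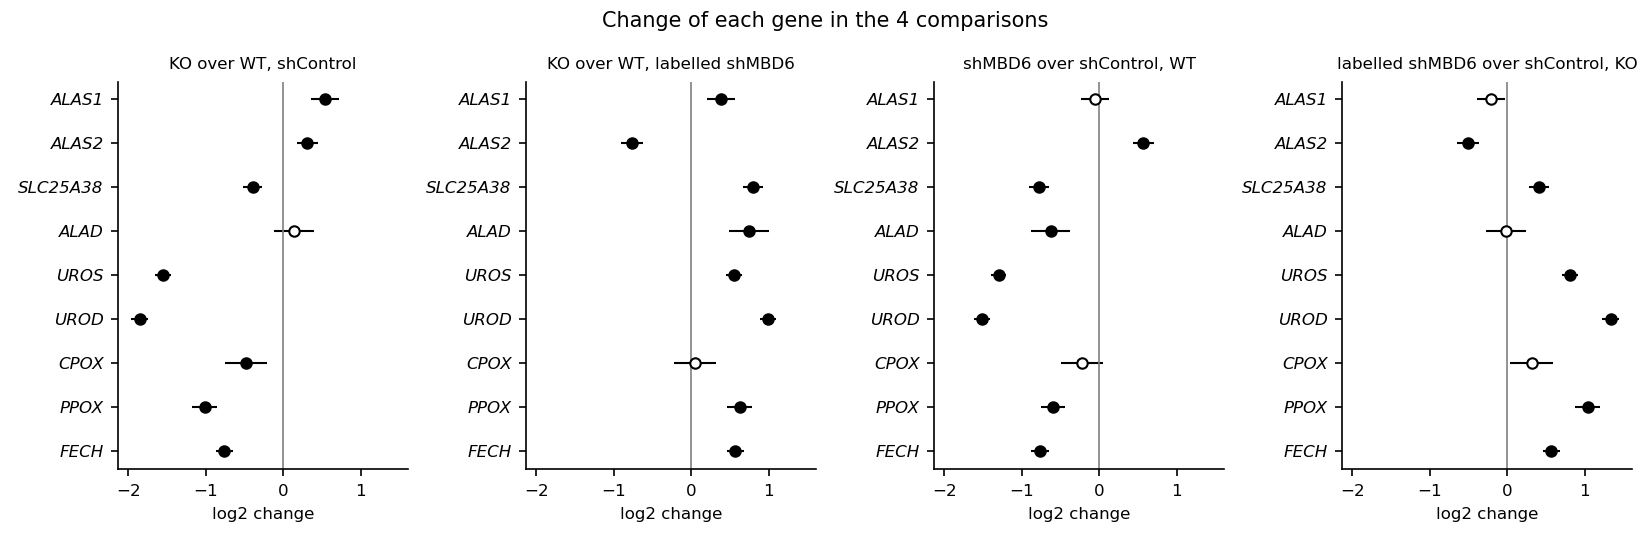
Log2 change of each gene in the 4 comparisons (x axis), with the ALAS genes and SLC25A38 above the later enzymes. Points are estimates, lines are 95% intervals, and filled points were called at an adjusted p under 0.05. For SLC25A38 and the enzymes after ALAS, called changes are negative in KO over WT with shControl and in shMBD6 over shControl in WT and positive in the other panels, and ALAS2 has the opposite sign in each panel.

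In the presence of the shMBD6 label the genotype difference had the opposite sign for most of these genes. Between WT shMBD6 and KO labelled shMBD6, again 8 of 9 genes were called, 7 higher in KO (ALAS1, ALAD, UROS, UROD, PPOX, FECH and SLC25A38) and 1 lower (ALAS2), where 58.6% of all genes were called, 30.1% higher and 28.5% lower. The groups did not overlap for 8 of the 9 genes and for 64.0% of all genes. UROD stood at 42.2, 38.4 and 36.5 CPM in WT shMBD6 and at 78.5, 80.4 and 74.2 CPM in KO labelled shMBD6, 1.99-fold higher (log2 change 0.99, SE 0.05, adjusted p = 6.63e-17). SLC25A38 was at 23.3, 21.3 and 22.3 CPM against 39.5, 38.9 and 37.4 CPM, 1.73-fold higher (log2 change 0.79, SE 0.07, adjusted p = 3.36e-12). ALAD was at 6.85, 6.93 and 5.57 CPM against 9.35, 11.8 and 11.3 CPM, 1.68-fold higher (log2 change 0.75, SE 0.13, adjusted p = 1.32e-05). In each of these genes all KO libraries lay above all WT libraries. UROS, PPOX and FECH were higher by 0.55, 0.62 and 0.57 on the log2 scale, whereas ALAS2 fell by 0.77 (SE 0.07, adjusted p = 3.47e-11). CPOX differed by 0.05 (95% interval -0.22 to 0.32, adjusted p = 0.795).

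These 2 genotype comparisons share no library, and their difference was tested as the interaction of genotype and shRNA label. It was called for 8 of the 9 genes, 7 positive and 1 negative, against 49.4% of all genes (23.9% positive and 25.5% negative). The median was 1.19 over the 9 genes and -0.19 over all genes. UROD had an interaction of 2.85 (SE 0.08, adjusted p = 5.09e-25) and UROS of 2.11 (SE 0.07, adjusted p = 7.72e-22). PPOX (1.64), FECH (1.33) and SLC25A38 (1.19) followed, and ALAD (0.61) and CPOX (0.53) had the smallest positive values. The ALAS2 interaction was -1.07 (SE 0.10, adjusted p = 4.41e-11). That of ALAS1 was -0.16 (95% interval -0.41 to 0.10, adjusted p = 0.331), and ALAS1 was the gene of the 9 that rose in KO under both labels. The CPOX call (adjusted p = 0.0235) was lost without any of 4 single libraries (WT shControl replicate 2, KO shControl replicate 1 or 3, or KO labelled shMBD6 replicate 1), with values of 0.43 to 0.50.

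With both shRNA labels averaged, the genotype difference was 0.46 for ALAS1 (SE 0.06, adjusted p = 3.75e-07) and 0.44 for ALAD (SE 0.09, adjusted p = 0.000151), -0.50 for UROS and -0.43 for UROD. Of the 9 genes, 8 were called, where 52.7% of all genes were. SLC25A38 and ALAS2 changed sign against their shControl values, at 0.20 and -0.23, so an average over labels describes ALAS1 and few of the other genes. FECH, at -0.10, lost its call when any of 5 single libraries was left out (WT shControl 1 or 3, WT shMBD6 1, KO shControl 3 or KO labelled shMBD6 3), with values of -0.10 to -0.08. CPOX, at -0.22 (adjusted p = 0.0578), was called without KO shControl replicate 2 (-0.26) or KO labelled shMBD6 replicate 1 (-0.27).

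The comparison of WT shMBD6 with WT shControl shares the WT shControl libraries with that of KO against WT shControl. Of the 9 genes, 7 were called, ALAS2 higher and 6 lower (ALAD, UROS, UROD, PPOX, FECH and SLC25A38), against 42.5% of all genes, 17.7% higher and 24.7% lower. The groups did not overlap for 8 of the 9 genes, against 57.7% of all genes. The median was -0.63 over the 9 genes and 0.10 over all genes. UROD was 2.86-fold lower (log2 change -1.51, SE 0.05, adjusted p = 2.74e-21) and UROS 2.47-fold lower, from 109 ± 4.62 to 44.1 ± 1.60 CPM (log2 change -1.30). SLC25A38, FECH, ALAD and PPOX fell by 0.78, 0.77, 0.63 and 0.60 on the log2 scale. ALAS2 rose from 25.3 ± 0.680 to 37.4 ± 1.56 CPM, 1.48-fold (log2 change 0.56, SE 0.07, adjusted p = 3.31e-08), its highest level in the 4 groups. ALAS1 differed by -0.05 (95% interval -0.23 to 0.13, adjusted p = 0.682) and CPOX by -0.22 (95% interval -0.49 to 0.05, adjusted p = 0.204). MBD6 caRNA itself had fallen in these libraries.

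In KO cells the libraries labelled shMBD6 were compared with KO shControl, although MBD6 caRNA was not lower in them. Of the 9 genes, 6 were called, 5 higher (UROS, UROD, PPOX, FECH and SLC25A38) and ALAS2 lower, against 36.4% of all genes, 15.7% higher and 20.6% lower. No overlap was seen in 8 of the 9 genes and in 43.8% of all genes. UROD rose 2.52-fold (log2 change 1.33, SE 0.05, adjusted p = 1.01e-19), PPOX 2.06-fold, from 14.9 ± 0.821 to 30.7 ± 2.67 CPM (log2 change 1.04, SE 0.08, adjusted p = 2.41e-12), and UROS 1.75-fold, from 36.9 ± 1.67 to 64.7 ± 3.41 CPM (log2 change 0.81, SE 0.05, adjusted p = 1.83e-14). FECH and SLC25A38 rose by 0.56 and 0.40 on the log2 scale. ALAS2 fell from 31.2 ± 0.319 to 21.9 ± 1.68 CPM (log2 change -0.51, SE 0.07, adjusted p = 3.65e-07). ALAS1 stood at 19.5, 26.97 and 25.5 CPM in KO labelled shMBD6, with replicate 1 near the WT level, and its difference of -0.21 was not called (adjusted p = 0.0713). It was called without replicate 2 (-0.30) or replicate 3 (-0.26) of that group. CPOX differed by 0.31 (95% interval 0.04 to 0.58, adjusted p = 0.0800) and ALAD by -0.02 (95% interval -0.27 to 0.23, adjusted p = 0.929).

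The 4 groups were placed in order for each gene. For UROS and UROD the order from high to low was WT shControl, KO labelled shMBD6, WT shMBD6 and KO shControl, and no 2 neighbours overlapped. Of the 9 genes, 5 were called between KO labelled shMBD6 and WT shControl, against 38.9% of all genes, and 3 without KO labelled shMBD6 replicate 2. KO labelled shMBD6 remained 1.68-fold below WT shControl for UROS (log2 change -0.75, SE 0.05, adjusted p = 4.19e-14) and 1.44-fold for UROD (-0.52, SE 0.05, adjusted p = 3.64e-10). For PPOX and SLC25A38 these groups overlapped, at 30.2 ± 1.09 and 30.7 ± 2.67 CPM and at 38.4 ± 0.880 and 38.6 ± 1.08 CPM. FECH overlapped between the low groups, at 34.6 ± 1.16 CPM in WT shMBD6 and 34.7 ± 1.03 CPM in KO shControl. ALAS2 ran from WT shMBD6 through KO shControl and WT shControl to KO labelled shMBD6 with no overlap between neighbours. ALAS1 overlapped within WT and between WT shControl and KO labelled shMBD6, and ALAD overlapped among the 3 groups other than WT shMBD6. For CPOX, KO labelled shMBD6 (6.90 to 8.77 CPM) overlapped WT shControl (7.93 to 9.54 CPM) and WT shMBD6 (7.28 to 7.43 CPM).

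**Figure D3:**
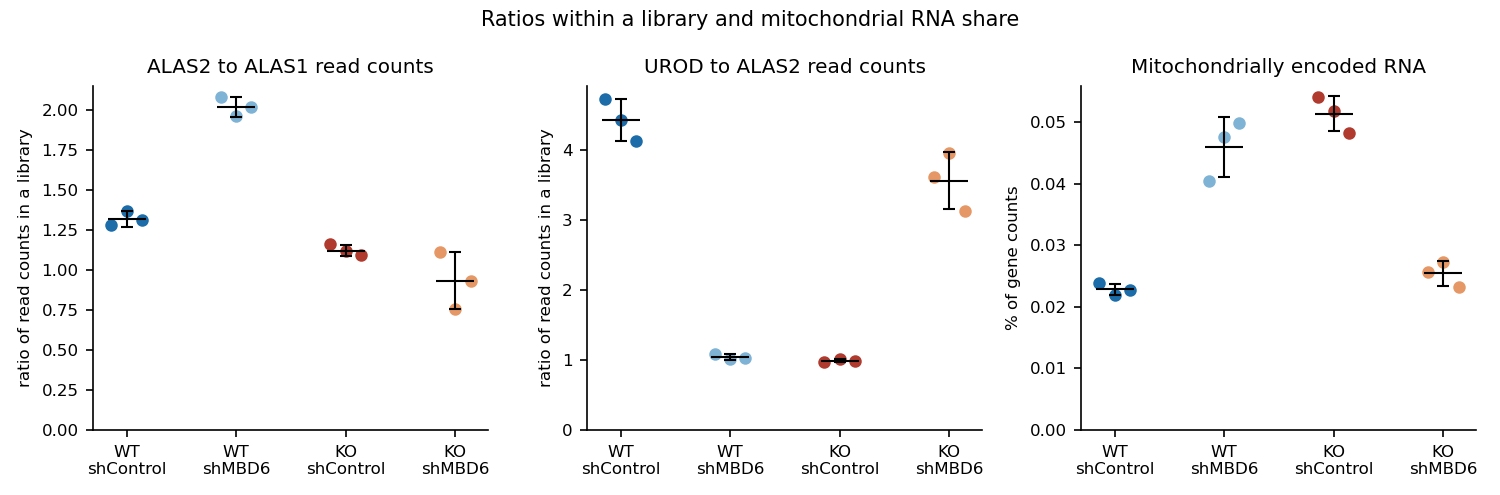
Ratio of ALAS2 to ALAS1 and of UROD to ALAS2 read counts within each library (left and middle) and percent of gene counts from the mitochondrial genome (right), by group. Points are libraries and bars are the mean and SD of 3 libraries. UROD reads are about as many as ALAS2 reads in WT shMBD6 and KO shControl and several times as many in the other groups, where the mitochondrial share is lower.

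Ratios of read counts within a library need no scaling between libraries. The ratio of UROD to ALAS2 reads was 4.72, 4.43 and 4.12 in WT shControl, 1.09, 1.01 and 1.03 in WT shMBD6, 0.972, 1.01 and 0.982 in KO shControl and 3.61, 3.95 and 3.13 in KO labelled shMBD6. The groups thus split into a pair with a ratio above 3.1 and a pair near 1. The ratio of ALAS2 to ALAS1 reads was 1.32 ± 0.0502 in WT shControl, 2.02 ± 0.0621 in WT shMBD6, 1.12 ± 0.0347 in KO shControl and 0.932 ± 0.179 in KO labelled shMBD6. The erythroid isozyme therefore outnumbered the housekeeping one most in WT shMBD6. These ratios compare the same gene pair across groups and say nothing of which gene has more transcripts.

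To compare genes with each other, CPM was divided by length. Per kb of exon, WT shControl cells had the order UROD (27.7 ± 1.39), SLC25A38 (14.4 ± 0.330), ALAS2 (12.3 ± 0.332), UROS (11.4 ± 0.486), ALAS1 (7.56 ± 0.404), PPOX (6.40 ± 0.231), FECH (5.30 ± 0.162), CPOX (2.72 ± 0.267) and ALAD (2.02 ± 0.172). In WT shMBD6 and KO shControl the highest level per exon kb was that of ALAS2, at 18.2 ± 0.761 and 15.3 ± 0.156 CPM. Per kb of gene span UROD led in all 4 groups, at 24.1 ± 1.21, 8.44 ± 0.620, 6.67 ± 0.0749 and 16.8 ± 0.694 CPM in the order WT shControl, WT shMBD6, KO shControl and KO labelled shMBD6, and ALAD and CPOX were the lowest. The place of ALAS2 thus depended on whether introns were counted in the length, and the feature counted is not given in the sources used here.

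Over the 12 libraries, UROD log2 CPM had a Pearson r of 0.98 with FECH, 0.97 with UROS and 0.93 with PPOX. ALAS2 had -0.95 with SLC25A38, -0.83 with FECH and -0.75 with UROD, and ALAS1 had 0.70 with ALAD and -0.77 with CPOX. These values describe 4 clusters of 3 libraries that share their group and depth. Among 9554 other protein-coding genes with a mean of at least 5 CPM, those most like UROD were USP20 (r = 0.995), TFRC (0.995) and LRP8 (0.993). Those most like UROS were ARID1A (0.995), OSBPL3 (0.993) and TSPAN14 (0.991), and those most like FECH were HJURP (0.992), FADS2 (0.989) and SPTB (0.989), which encodes an erythrocyte spectrin. JAZF1 (0.984), KCNAB1 (0.979) and SLC25A37 (0.978), which encodes the mitochondrial iron importer mitoferrin, were most like ALAS2. LYL1 (0.961), TERF2IP (0.959) and ORC3 (0.958) were most like ALAS1, BUD23 (0.963), DDX6 (0.953) and PIGC (0.948) most like ALAD, and FCHO1 (0.990), LONRF2 (0.972) and DHTKD1 (0.971) most like PPOX. CHD8 (0.992), CPT1A (0.992) and MSN (0.990) were nearest to SLC25A38, and CLIC1 (0.897), PGR (0.894) and RASIP1 (0.886) to CPOX. Such likeness was common: 12.2% of the genes compared had an r above 0.9 with SLC25A38, 9.03% with FECH and 6.14% with UROD. Scaling by total gene counts left DDX6 at 0.620 with ALAD and TERF2IP and ORC3 at 0.745 and 0.756 with ALAS1, and moved the genes named for CPOX to between 0.934 and 0.955.

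The members were also set beside the genes around them. None of 12 tested genes within 1 Mb of UROS fell as far as UROS in KO shControl, and their median log2 change was -0.30. Among 30 genes within 1 Mb of UROD, 2 fell further and the median was -0.26. Under the shMBD6 label, 2 of 12 rose further than UROS and 1 of 30 further than UROD. Of 9 genes around FECH, 1 fell further in KO shControl. In the interaction, 0 of 12, 0 of 30 and 0 of 9 neighbours went beyond UROS, UROD and FECH in the direction of the gene. For the other genes these were 1 of 18 (SLC25A38), 3 of 49 (PPOX), 2 of 10 (CPOX), 5 of 24 (ALAD), 5 of 19 (ALAS2) and 14 of 43 (ALAS1). CPOX, at -0.49 in KO shControl, was near the median of its neighbours (-0.475), and 5 of 10 fell further. For ALAS2, 8 of 19 neighbours rose further in KO shControl, and for PPOX 9 of 49 fell further.

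Measures of whole libraries moved with the same order of groups. RNA from the mitochondrial genome made up 0.0220% to 0.0238% of gene counts in WT shControl, 0.0405% to 0.0499% in WT shMBD6, 0.0483% to 0.0540% in KO shControl and 0.0233% to 0.0273% in KO labelled shMBD6. Olfactory receptor genes, which these cells are not known to use, stood at 0.178, 0.230, 0.302 and 0.217 CPM per exon kb in that order. Across 9555 protein-coding genes with a mean of at least 5 CPM, the log2 change in KO against WT shControl had a Spearman rho of 0.378 with gene span, and the interaction had -0.465. Genes spanning under 20 kb had a median of -0.21 in KO against WT shControl and of 0.57 in the interaction, against 0.06 and 0.11 for longer genes. UROD, PPOX, ALAD, CPOX, ALAS1 and SLC25A38 are in the shorter class, while UROS, FECH and ALAS2 are in the longer one. The part that fractionation or library makeup had in the changes was not tested.

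The other genes of the pathway were described from lists. Their counts stand beside the shares over all genes. In KO against WT shControl 45.8% of all genes were called, 23.5% higher and 22.3% lower. In WT shMBD6 against WT shControl the share was 42.5%, 17.7% higher and 24.7% lower. Between the KO groups it was 36.4%, 15.7% higher and 20.6% lower. Of 16 tested genes of mitochondrial transport and iron-sulphur cluster assembly, 2 were higher and 10 lower in KO against WT shControl, and 6 were higher and 2 lower in KO labelled shMBD6 against KO shControl. ABCB10, a transporter of the inner mitochondrial membrane needed for heme synthesis, went from 114 ± 4.65 CPM in WT shControl to 88.6 ± 2.71 in WT shMBD6, 73.7 ± 1.08 in KO shControl and 102 ± 3.98 in KO labelled shMBD6 (log2 change -0.63 in KO against WT shControl, adjusted p = 1.76e-14). The iron-sulphur scaffold gene ISCU fell by 0.79 on the log2 scale in KO against WT shControl and rose by 0.94 in KO labelled shMBD6. HSPA9, a mitochondrial chaperone of cluster transfer, changed by -0.15 and 0.33 in these comparisons. GLRX5, a glutaredoxin of cluster transfer, fell by 0.81 in KO against WT shControl (adjusted p = 1.71e-06) and differed by 0.02 between the KO groups (adjusted p = 0.927). SLC25A37, like ALAS2, was highest in WT shMBD6 and lowest in KO labelled shMBD6. It stood at 230 ± 1.13, 292 ± 7.83, 261 ± 4.91 and 206 ± 6.11 CPM in the 4 groups, with an interaction of -0.68 (SE 0.04, adjusted p = 4.63e-15).

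Of 12 tested genes of iron uptake and storage, 1 was higher and 7 lower in KO against WT shControl, 9 were called in WT shMBD6 against WT shControl, all lower, and 6 were higher and 1 lower in KO labelled shMBD6 against KO shControl. The shares called over all genes were 45.8%, 42.5% and 36.4% in these comparisons. The exceptions, named after their values were seen, were IREB2, an iron-regulatory protein, which rose by 0.60 in KO against WT shControl, and FTL, the ferritin light chain, which fell by 0.41 between the KO groups. TFRC, the transferrin receptor, stood at 578 ± 5.95, 356 ± 4.51, 318 ± 2.94 and 470 ± 4.20 CPM in the 4 groups (log2 change -0.86 in KO against WT shControl, SE 0.03, adjusted p = 1.61e-24). STEAP3, the endosomal ferrireductase, fell by 1.17 and SLC40A1, the iron exporter ferroportin, by 1.12 on the log2 scale in the same comparison, and they rose by 0.84 and 0.97 in KO labelled shMBD6. TFR2, a second transferrin receptor, fell by 0.23 and rose by 0.62.

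Of 9 genes that supply glycine and succinyl-CoA, 1 was higher and 4 lower in KO against WT shControl, all 9 were lower in WT shMBD6 against WT shControl, and 5 were higher and 2 lower in KO labelled shMBD6 against KO shControl. Over all genes the shares called were 45.8%, 42.5% and 36.4%. The glycine transporter gene SLC6A9 fell by 0.51 in KO against WT shControl and rose by 0.30 in KO labelled shMBD6. The succinyl-CoA synthetase subunit SUCLG1 fell by 0.32 and rose by 0.16, the mitochondrial serine hydroxymethyltransferase SHMT2 fell by 0.25 and rose by 0.43, and DLD, a subunit of 2-oxoglutarate dehydrogenase, rose by 0.34 and then differed by -0.08 (adjusted p = 0.136). OGDH, the catalytic subunit of that complex, fell by 0.33 in KO labelled shMBD6.

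Of 11 genes known to act on ALAS or to sense heme, 3 were higher and 1 lower in KO against WT shControl, and 2 were higher and 4 lower in KO labelled shMBD6 against KO shControl. The shares called over all genes were 45.8% and 36.4%. CLPX, an unfoldase that activates ALAS and helps degrade it, stood at 34.6 ± 0.751, 26.4 ± 0.930, 50.4 ± 0.647 and 53.5 ± 5.76 CPM in the 4 groups and, like ALAS1, was higher in both KO groups (log2 change 0.54 in shControl, SE 0.06, adjusted p = 1.46e-08). BACH1, a heme-binding repressor, rose by 0.11 in KO shControl, a sign that turned (-0.07) under scaling by total gene counts, and fell by 0.36 in KO labelled shMBD6. LONP1, a protease that degrades ALAS1, changed by -0.12 and 0.23, and the heme-binding PGRMC2 by 0.20 and -0.37.

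Of 8 tested genes of heme breakdown, use and export, 2 were higher and 2 lower in KO against WT shControl, and 1 (BLVRB, higher) was called in KO labelled shMBD6 against KO shControl. With 45.8% and 36.4% of all genes called there, this list was near the share in the first comparison and below it in the second. BLVRB, a biliverdin reductase, fell by 0.94 and rose by 0.47, and FLVCR1, a heme exporter, rose by 0.43 in KO shControl and differed by -0.02 between the KO groups (adjusted p = 0.828). ABCG2, a porphyrin exporter, fell by 1.61 in KO against WT shControl from 0.939 ± 0.307 CPM. BLVRA and FLVCR2, named by their rank, differed by 0.05 (adjusted p = 0.477) and -0.58 (adjusted p = 0.514) between the KO groups.

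**Figure D4:**
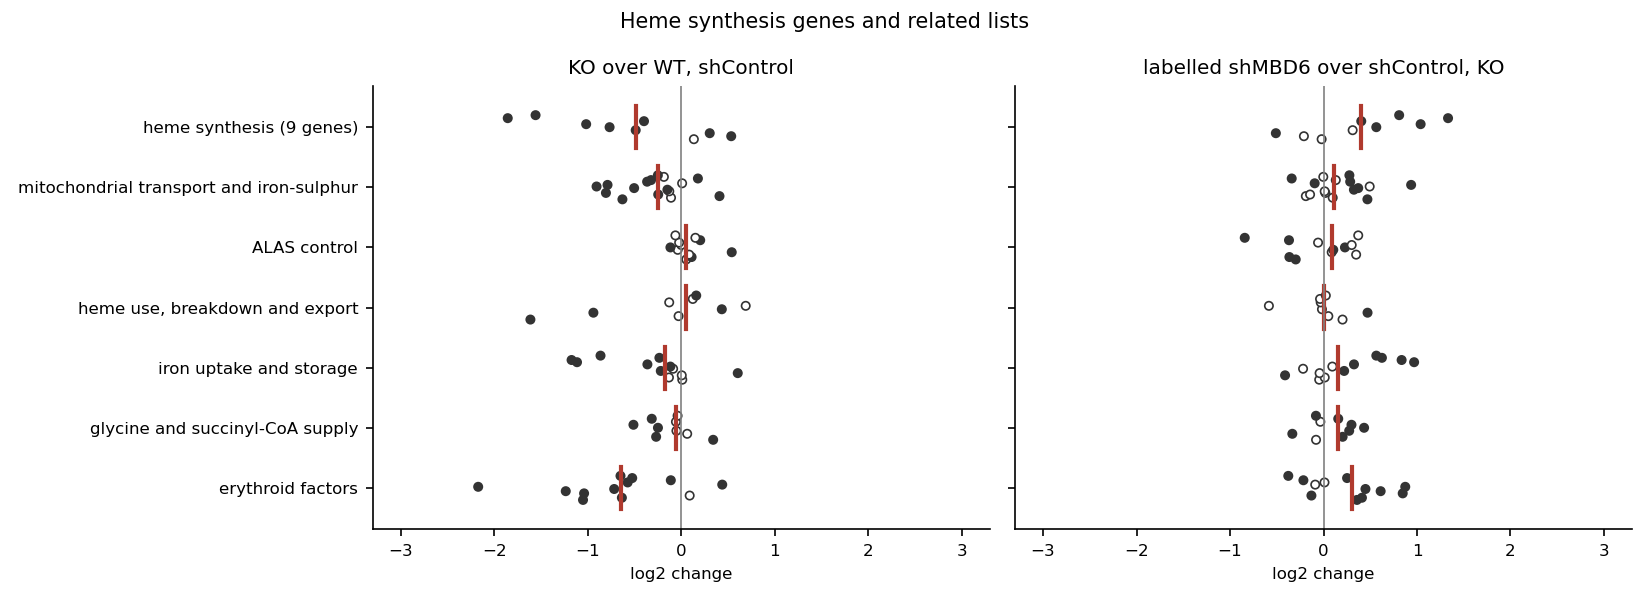
Log2 change of each tested gene of the heme synthesis list and of 6 related lists in KO against WT shControl (left) and in KO labelled shMBD6 against KO shControl (right). Each point is a gene, filled where called, and the vertical bar is the median of the list. Among the lists drawn, medians of the heme synthesis genes (-0.49 and 0.40) and of the erythroid factors (-0.64 and 0.305) lie furthest from 0. The globin list is not drawn and had medians of -1.36 (left) and 0.127 (right).

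Of 12 genes of erythroid regulation, 11 transcription factors or their partners and the erythropoietin receptor EPOR, 1 was higher and 10 lower in KO against WT shControl, 8 were called in WT shMBD6 against WT shControl, all lower, and 7 were higher and 3 lower in KO labelled shMBD6 against KO shControl. Among all genes the shares called were 45.8%, 42.5% and 36.4%. LMO2, a bridging subunit of the GATA1 and TAL1 complex, stood at 247 ± 2.70, 92.8 ± 3.10, 54.7 ± 2.38 and 100.5 ± 3.62 CPM in the 4 groups (log2 change -2.17 in KO against WT shControl, SE 0.04, adjusted p = 6.23e-30). LDB1 and GFI1B, a partner of that complex and an erythroid repressor, fell by 0.72 and 1.04 and rose by 0.45 and 0.85 in KO labelled shMBD6. RUNX1 fell by 0.11 and by a further 0.22. Named after their values were seen, ZFPM1 fell by 0.65 and by a further 0.38, GATA2 differed by 0.09 (not called) and then fell by 0.13, LYL1 rose by 0.44 in KO against WT shControl, and NFE2 fell by 0.57 there and differed by 0.01 (not called) between the KO groups.

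Globin RNA on chromatin was low. Of 9 tested globin genes and AHSP, 4 were called in KO against WT shControl, all lower, and 2 in KO labelled shMBD6 against KO shControl, both higher. With 45.8% and 36.4% of all genes called there, these counts were no higher than the shares over all genes. The list medians were -1.36 and 0.127. HBG1 stood at 6.63 ± 0.314, 1.75 ± 0.0760, 0.990 ± 0.224 and 2.77 ± 1.31 CPM in the 4 groups, and HBD at 2.64 ± 0.164, 1.16 ± 0.133, 1.07 ± 0.324 and 1.87 ± 0.260 CPM. The HBD call between the KO groups was lost without KO shControl replicate 2 (0.57) or without KO labelled shMBD6 replicate 2 (0.74) or 3 (0.73). AHSP, the chaperone of alpha globin, held 51 to 91 reads per library in WT shControl and 1 read over the 3 libraries of KO shControl. HBG1 shares nearly all its sequence with HBG2, which was listed at 0 with HBE1 under overlapping same-strand genes, so that these values are uncertain. Among the lists, 10 genes were not tested, 4 of them with an overlapping same-strand gene, such as ABCB6.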

How the data were processed

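caRNA of K562 was measured in 12 libraries, 3 for each of 4 groups taken from the sample labels. Per the study's methods and processing notes, the authors trimmed reads with Trimmomatic 0.39, aligned them with HISAT2 2.2.1 to hg38 with GENCODE 29 and counted them with HTSeq 0.12.4 (featureCounts is also named). The deposited values are raw read counts per gene. Reads aligned more than once (10.1% to 11.2% of records), shared by overlapping genes (4.63% to 5.24%) or outside genes (13.1% to 16.0%) were not assigned to genes and were left out of library sizes. The files held 0 spike-in lines, so a change in total caRNA per cell, or in the number of cells, cannot be seen. The study added ERCC spike-in RNA to its caRNA. It reports excess caRNA in K562 after TET2 loss, which MBD6 knockdown reversed. A lower level here is relative to other genes and need not be a lower amount per cell. Libraries of mESC in the series were not used.

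Identifiers were matched to GENCODE 44 symbols (99.12% without version, 58.91% with it). Counts were fitted with edgeR 4.0.16 (limma 3.58.1, R 4.3.3; filterByExpr with a minimum of 10 counts, TMM, robust quasi-likelihood, 2-sided tests) over 26023 genes. Replicates differed by more than sampling noise (chi-square per degree of freedom 5.26 to 14.14). Same-numbered libraries did not deviate together (r from -0.017 to 0.020), so replicate numbers were not treated as pairs. Alternatives were DESeq2 1.42.0, its size factors, total gene counts, 2 other filters, the groups compared alone, a replicate block and leaving out each library. The averages over both labels and the comparisons between KO labelled shMBD6 and WT shControl were added after the data were seen.

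The 9 genes and all lists were chosen with earlier results of these data known. Some genes of the lists are not reported here. Named were the 9 genes, TET2, MBD6, the 3 genes of lowest p per list in KO against WT shControl and in KO labelled shMBD6 against KO shControl, called or not, and the 3 genes most like each member.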

Additional observations from a re-analysis of the deposited data

Results flagged for a closer look

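The effect of TET2 genotype differed between the shRNA labels for 8 of the 9 genes, by the interaction term of the edgeR fit on the log2 scale. This term was called for 49.4% of all genes and rests on the labels of both KO groups. The interaction was 2.85 for UROD, 2.11 for UROS, 1.64 for PPOX, 1.33 for FECH, 1.19 for SLC25A38, 0.61 for ALAD, 0.53 for CPOX and -1.07 for ALAS2, the one gene among them that was higher in KO with shControl and lower in KO with the shMBD6 label. MBD6 caRNA also had a positive interaction, 0.75 (SE 0.11, adjusted p = 4.51e-07), being lower in WT shMBD6 and not lower in KO labelled shMBD6. Groups of 3 libraries were too small for the test of single outlying samples.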

How the results depend on the processing

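Of 630 values of the 9 genes in the 5 comparisons under alternatives, 601 kept their direction and their side of the threshold, 8 kept the direction and lost the call, 3 gained it and 18 changed sign. In those 5 comparisons counts of called genes stayed within 1.5 times of the reported ones: leaving out single libraries gave 8 in KO against WT shControl, 8 under the shMBD6 label, 7 in WT, 6 to 7 in KO and 7 to 8 in the interaction. Between KO labelled shMBD6 and WT shControl it gave 3 (without KO shMBD6 replicate 2) to 5. With the replicate block, which rests on numbers that do not pair the libraries, the UROD change in KO against WT shControl was -1.86 and no call of the 9 genes changed. Sign changes fell on small differences. ALAD turned to -0.041 in KO against WT shControl under total gene counts, and to 0.10 (total gene counts), 0.029 (no filter) and 0.028 (only the groups compared) between the KO groups, where leaving out single libraries gave -0.11 to 0.074. ALAS1 in WT turned to 0.057 (DESeq2 and its size factors), 0.044 (total gene counts), 0.052 (without a filter) and 0.029 (at least 1 CPM in 3 libraries). CPOX under the shMBD6 label turned to -0.073 (DESeq2 and its size factors), -0.10 (total gene counts), -0.012 (with no filter), -0.061 (at least 1 CPM in 3 libraries) and -0.023 (only the groups compared), with -0.061 to 0.12 on leaving out single libraries. BACH1 in KO against WT shControl turned to -0.066 under total gene counts. Averaged over both labels, ALAS2 was -0.23 and SLC25A38 0.20 against their shControl values, and UROS -0.50, UROD -0.43, CPOX -0.22, PPOX -0.20 and FECH -0.10 against their shMBD6 values, as follows from opposite signs under the labels. The CPOX interaction lost its call with DESeq2 (0.44), its size factors (0.43) and no filter (0.48), the averaged SLC25A38 difference lost it under total gene counts (0.03), and MBD6 was called higher in KO labelled shMBD6 with DESeq2 (0.20) and with total gene counts (0.31). Total gene counts moved the median of all genes by -0.18 in KO against WT shControl, -0.15 under the shMBD6 label and 0.12 between the KO groups, and DESeq2 size factors moved it by -0.12 under the shMBD6 label and 0.11 in WT. Relative to that median, each of the 9 genes kept its sign in every comparison under the 3 scalings. This was bound to hold, because a scaling moves a gene and the median alike, so it is no test of the scaling. The split of all called genes, higher to lower, went from 6127 to 5794 to 4526 to 8283 in KO against WT shControl, from 7837 to 7422 to 5778 to 8828 under the shMBD6 label (6288 to 9030 with DESeq2), from 4616 to 6431 to 5659 to 4938 in WT (5798 to 4715 with DESeq2 size factors, 6503 to 4849 with DESeq2) and from 4095 to 5370 to 6048 to 4047 in KO. ALAD and CPOX, with 392 to 1102 and 394 to 994 reads per library, had the widest intervals.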
